A study of Mus musculus with 10 samples.

Results

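The cyclin-dependent kinase (CDK) inhibitors and the D cyclins set whether a cell leaves the resting state, and 10 of their genes are described here in mouse glomeruli, the filtering units of the kidney. They are the Cip/Kip inhibitors Cdkn1a, Cdkn1b and Cdkn1c, the INK4 inhibitors Cdkn2a, Cdkn2b and Cdkn2c, the D cyclins Ccnd1, Ccnd2 and Ccnd3, and the kinase Cdk4. Every probe set that the platform annotation ties to exactly 1 gene was taken where that gene is on this list, which gave 24 of the 45037 probe sets tested and 10 of the 18193 genes measured. All of the mice were unweaned males aged 27 days, on the FVB/N strain after 4 backcross generations. The 5 Wt1 +/R394W mice carried 1 copy of the R394W missense allele of Wt1, a germline knock-in, and the 5 Wt1 +/+ littermates carried none. The mutants had little albuminuria, and light microscopy showed no mesangial lesions in them. Wt1 encodes a zinc finger protein that regulates transcription in podocytes, epithelial cells on the outside of the filter, and the allele models Denys-Drash syndrome.

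D cyclins bind Cdk4 or Cdk6, and the active kinase phosphorylates the retinoblastoma protein, which frees E2F factors to switch on genes of DNA replication. INK4 proteins bind Cdk4 and Cdk6 and block their pairing with D cyclins, while Cip/Kip proteins bind complexes of cyclins and kinases and mainly restrain Cdk2. Mature podocytes are held out of the cell cycle, and Cdkn1c (p57) and Cdkn1b (p27) are known as inhibitors present in them.

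Each mouse gave 1 expression array, and the values are log2 RMA values (robust multi-array average, a normalized summary of the probes of a probe set). Precision is limited by the number of arrays. The medians of the arrays lay within 0.0817 of each other and correlations between arrays ran from 0.985 to 0.997, with no array standing apart in these measures. Podocyte markers matched the labelled tissue: 11 of 14 listed genes had a single-gene probe set, all 11 were above the receptor level of 6.30, the 95th percentile of the means of 80 probe sets for olfactory and vomeronasal receptors, and the list mean was 12.36 to 12.53 (wild types) and 12.15 to 12.49 (mutants). The transcript of Wt1 itself read 0.33 ± 0.10 (SE) higher in mutants without passing the test (limma adjusted p = 0.244), and a missense allele need not change it, so it does not check the genotype labels. A positive change means a higher mean in mutants, on the log2 scale, with n = 5 mice per genotype, and adjusted p-values come from limma with the Benjamini-Hochberg method over all 45037 probe sets. The probe set with the highest mean over the 10 arrays is called the main one of its gene. A probe set whose mean over the 10 arrays lay below 6.30 is said to be below the receptor level. In whole glomeruli, fewer cells of a type and less RNA per cell cannot be told apart.

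No member passed the test at an adjusted p under 0.05. Of the 24 probe sets, 0 were called, where limma called 0.853% of all probe sets (0.391% higher and 0.462% lower in mutants), and the smallest adjusted p among them was 0.108 for Cdkn2b. At an unadjusted p under 0.05 there were 7 of 24, 4 of them probe sets of Ccnd2, against 9.36% of all probe sets. The genotypes overlapped in all 24, where 2.78% of all probe sets had no overlap. The median change of the 24 was -0.0041, beside -0.0022 over all probe sets, and 12 changes were positive and 12 negative. Sizes differed between members. The main probe sets of Cdkn2b, Cdkn2c and Cdkn1c had changes of 0.46, 0.41 and 0.26, that of Ccnd2 had -0.36, and those of Cdkn1a, Cdkn1b, Ccnd1, Ccnd3 and Cdk4 lay between -0.03 and 0.05.

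**Figure D1:**
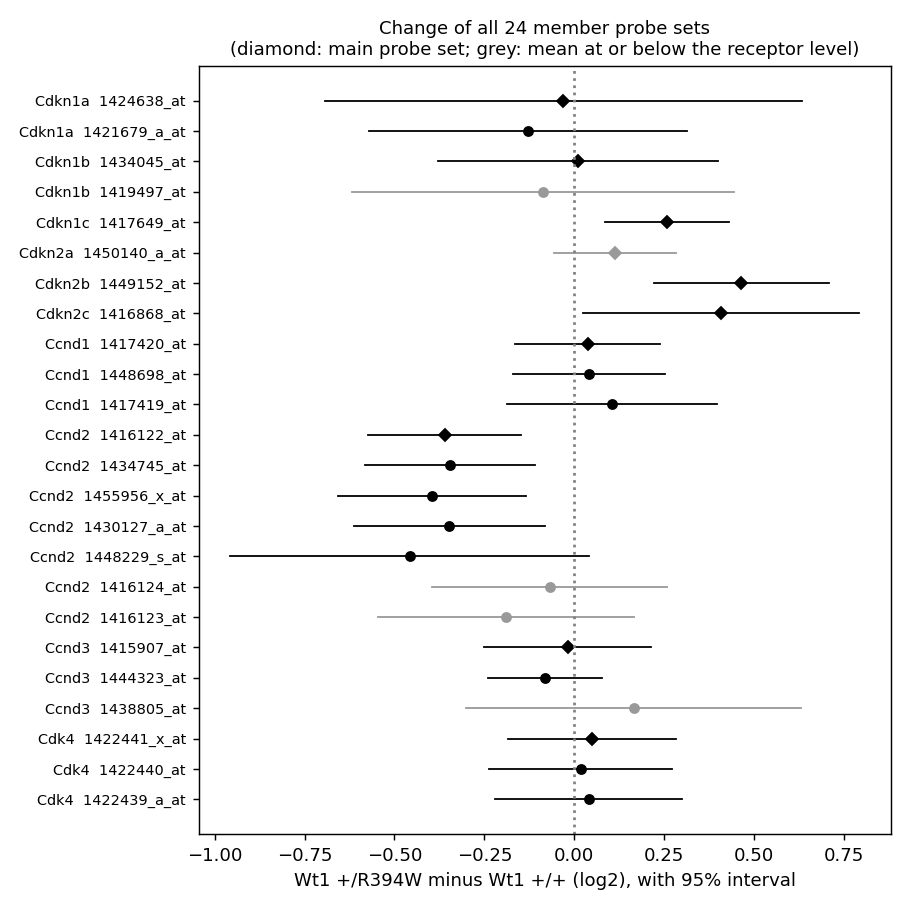
Change of the 24 member probe sets (mutant minus wild type, log2, horizontal axis) with the 95% interval of the limma fit, where diamonds are the main probe sets and grey marks those below the receptor level. The intervals of Cdkn1c, Cdkn2b and Cdkn2c lie above 0 and those of the 4 brightest Ccnd2 probe sets lie below 0, before any adjustment for the number of probe sets.

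Among the Cip/Kip inhibitors, Cdkn1c encodes p57, the imprinted inhibitor that marks resting podocytes. Its only probe set (1417649_at, chromosome 7) read 13.58, 13.86, 13.53, 13.65 and 13.62 in wild types 1 to 5. The mutants read 13.78, 13.96, 13.93, 13.80 and 14.07 in the same order. Wild type 2 lay among the mutants, and 3 of 5 mutants were above every wild type. Means were 13.65 ± 0.12 (SD, n = 5) and 13.91 ± 0.12 (SD, n = 5), so the mutant level was 1.20-fold that of wild type, with a 95% interval of 1.06 to 1.35. The change of 0.26 ± 0.08 (SE) did not pass over all probe sets (limma adjusted p = 0.253). An exact two-sided permutation test of this single value gave p = 0.0238, where 0.00794 is the smallest p that 5 against 5 mice allow. This is 1 of 10 such tests, 1 per member, which are not corrected for each other. The exact permutation tests of Cdkn1a, Cdkn1b, Cdkn2a, Ccnd1, Ccnd3 and Cdk4 gave p from 0.175 to 0.968. Its signal lay at the 99.8th percentile of all probe sets.

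Cdkn1a encodes p21, which p53 switches on after DNA damage and other stress. By its main probe set it had the widest range over the 10 mice of all members, and the genotype means lay close together. The main probe set (1424638_at, chromosome 17) read 10.08, 10.55, 9.21, 10.01 and 10.85 in wild types 1 to 5 and 10.945, 9.92, 9.75, 10.15 and 9.79 in mutants 1 to 5. The full range of 1.73 is 3.32-fold, and it was set by wild type 3 at the low end and mutant 1 at the high end. Means were 10.14 ± 0.62 (SD, n = 5) and 10.11 ± 0.49 (SD, n = 5). The change was -0.03 ± 0.30 (SE, limma adjusted p = 0.986), with a 95% interval of 0.618-fold to 1.55-fold, so differences within that interval were not excluded. Its other probe set (1421679_a_at) had wild type 2 and mutant 1 highest, at 8.35 and 8.05, and a change of -0.13 ± 0.20 (SE). RefSeq's promoter table (GRCm38.p6) lists a pair of start sites for Cdkn1a. The 250 bases before the upstream one (chr17:29090729-29090978, plus strand) are shown because they hold CATG on both sides of a 6-base spacer, the form of a p53 response element, in capitals 48 bases before the start.
Cdkn1a promoter: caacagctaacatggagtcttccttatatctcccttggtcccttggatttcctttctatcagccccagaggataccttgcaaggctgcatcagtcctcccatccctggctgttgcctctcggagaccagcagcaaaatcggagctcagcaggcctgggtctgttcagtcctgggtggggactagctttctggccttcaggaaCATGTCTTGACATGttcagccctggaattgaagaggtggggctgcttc
This spaced repeat occurs in 0.49% of the 32851 promoter windows of 250 bases, searched on both strands, and in 1 of the 11 windows of members. A match of letters is a description and not evidence of binding.

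Cdkn1b encodes p27, an inhibitor that accumulates in resting cells. Its main probe set (1434045_at, chromosome 6) read 9.33, 9.955, 9.12, 8.81 and 9.48 in wild types 1 to 5 and 9.54, 9.39, 9.14, 9.43 and 9.23 in mutants 1 to 5. The wild types alone spanned the whole range of the 10 mice, with wild type 2 highest and wild type 4 lowest. Their mean of 9.34 ± 0.43 (SD, n = 5) and the mutant mean of 9.35 ± 0.16 (SD, n = 5) differed by 0.01 ± 0.18 (SE, limma adjusted p = 0.993). The interval ran from 0.769-fold to 1.32-fold. The sign of this difference turned when single mice were left out, as did those of Cdkn1a, Ccnd1, Ccnd3 and Cdk4. The other probe set (1419497_at) was below the receptor level, at a mean of 5.76.

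**Figure D2:**
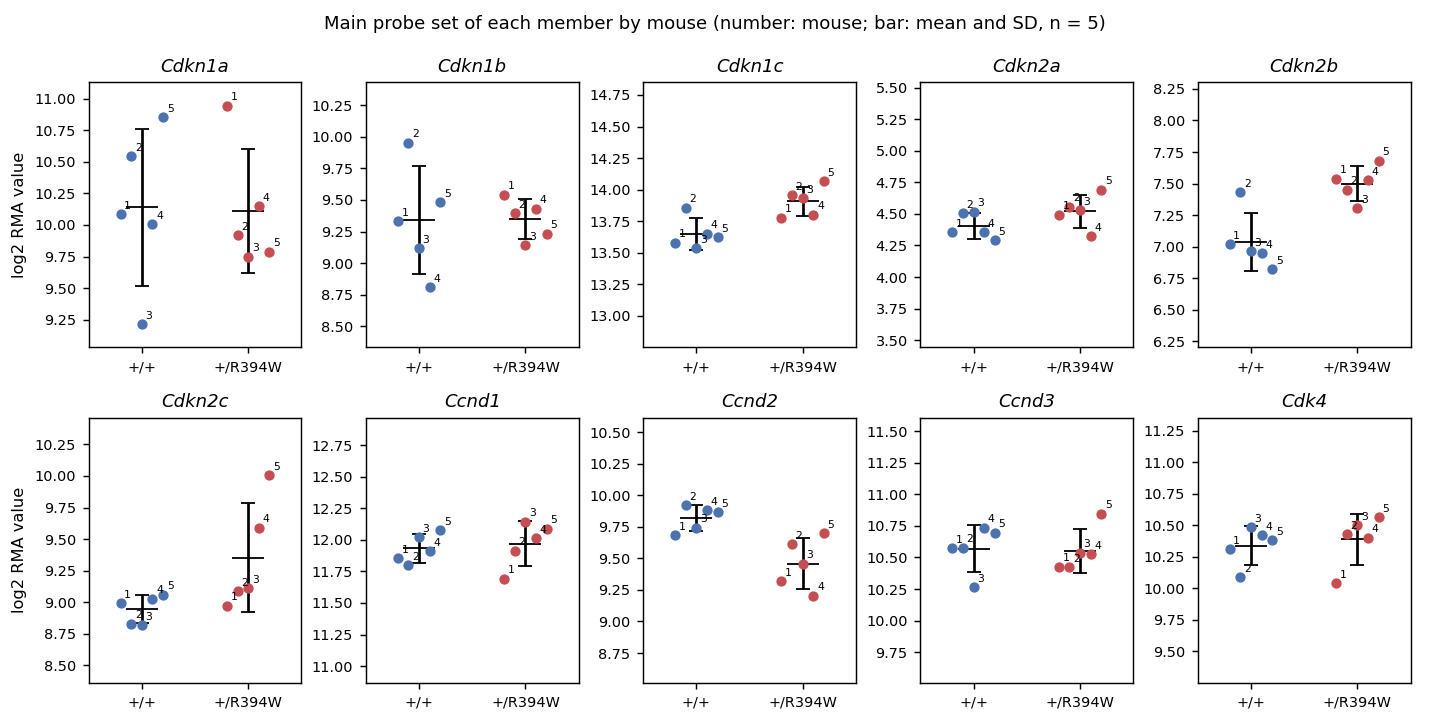
Log2 RMA value of the main probe set of each member by mouse, with the mean and SD of 5 mice per genotype as black bars; every vertical axis spans the same length, and the small numbers name the mouse. Cdkn1a has a range of 1.73 across the 10 mice, and in Cdkn2c mutants 4 and 5 stand at 9.59 and 10.004 above the other 8.

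Of the INK4 inhibitors, Cdkn2b and Cdkn2c had the largest positive differences among the main probe sets of the members, and neither passed. Cdkn2b encodes p15, an inhibitor known to respond to TGF-beta. Its only probe set (1449152_at, chromosome 4) read 7.02, 7.43, 6.96, 6.95 and 6.82 in wild types 1 to 5. The mutants read 7.54, 7.45, 7.30, 7.53 and 7.68. The value of wild type 2 lay above that of mutant 3, and 4 of 5 mutants were above every wild type. Means of 7.04 ± 0.23 (SD, n = 5) and 7.50 ± 0.14 (SD, n = 5) differed by 0.46 ± 0.11 (SE), a mutant level 1.38-fold that of wild type with a 95% interval of 1.17 to 1.63. The limma adjusted p was 0.108, and the exact permutation p of this value was 0.0159. Leaving out wild type 2 gave a change of 0.56 ± 0.08 (SE) that passed (limma adjusted p = 0.0144). With any other mouse left out the adjusted p ran up to 0.249, and with only the 7 mice whose title numbers lie close together the change was 0.34 (limma adjusted p = 0.654).

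Cdkn2c encodes p18, an INK4 protein known to be made by dividing cells as well as resting ones. Its only probe set (1416868_at, chromosome 4) read 8.99, 8.83, 8.82, 9.03 and 9.06 in wild types 1 to 5 and 8.97, 9.09, 9.11, 9.59 and 10.004 in mutants 1 to 5. Mutants 4 and 5 were far above all other mice, while mutant 1 lay among the wild types. The mean was 8.95 ± 0.11 (SD, n = 5) in wild types and 9.35 ± 0.43 (SD, n = 5) in mutants. The change of 0.41 ± 0.17 (SE), or 1.33-fold with a 95% interval of 1.02 to 1.73, did not pass (limma adjusted p = 0.496, exact permutation p = 0.0476). Without mutant 5 it was 0.25, with a limma adjusted p of 0.654.

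Cdkn2a, whose locus encodes both p16 and, in another reading frame, the p53 activator ARF, was below the receptor level. Its probe set (1450140_a_at, chromosome 4) read 4.29 to 4.52 in wild types and 4.32 to 4.69 in mutants, close to the median of 4.05 of the receptor probe sets. The change of 0.11 ± 0.08 (SE, limma adjusted p = 0.719) is a difference near the floor of the scale, where RMA compresses changes.

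The promoters of Cdkn2b and Cdkn2c are printed because these genes had the largest positive differences, and because they hold different motifs although both encode INK4 proteins on chromosome 4. Both come from RefSeq's table (GRCm38.p6) and give the 250 bases before the start on the minus strand, at chr4:89311033-89311282 for Cdkn2b and chr4:109666757-109667006 for the upstream of the starts listed for Cdkn2c. Capitals mark the cyclic AMP response element TGACGTCA in Cdkn2b, 46 bases before the start, and the GC box GGGCGG in Cdkn2c, 95, 51 and 40 bases before it.
Cdkn2b promoter: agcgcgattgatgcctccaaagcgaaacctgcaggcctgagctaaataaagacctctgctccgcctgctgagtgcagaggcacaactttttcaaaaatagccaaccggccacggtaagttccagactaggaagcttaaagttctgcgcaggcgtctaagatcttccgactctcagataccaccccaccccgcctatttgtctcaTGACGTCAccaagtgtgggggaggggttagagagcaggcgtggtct
Cdkn2c promoter: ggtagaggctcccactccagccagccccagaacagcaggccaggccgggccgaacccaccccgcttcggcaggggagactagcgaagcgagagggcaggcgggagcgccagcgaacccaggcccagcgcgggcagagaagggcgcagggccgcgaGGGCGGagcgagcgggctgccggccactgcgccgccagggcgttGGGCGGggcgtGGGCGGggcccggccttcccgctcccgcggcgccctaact
On both strands TGACGTCA occurs in 1.55% of all 32851 windows and GGGCGG in 32.7%, and among the 11 windows of members 1 and 7 hold them. The WT1 core GCGTGGG is in 4.30% of all windows and in 2 of the 11, of Cdkn2a and Cdkn2c, where it overlaps the third GC box of Cdkn2c. The longer WT1 site, GCGTGGG followed by AGT, is in 0.0517% of all windows and in 0 of the 11. For E2F the letters TTTCCCGC are in 0.895% of all windows and 1 of the 11, of Cdkn2a, and TTTGGCGC in 0.417% and 0 of the 11. The table gave windows for 7 of the 10 members and not for Cdkn1c, Ccnd1 and Ccnd2.

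Of the D cyclins, Ccnd2 read 1.28-fold lower in mutants by its main probe set, without passing, and Ccnd1 and Ccnd3 had differences near 0. Ccnd2 encodes cyclin D2, a D cyclin that growth factors induce in many cell types. The main probe set (1416122_at, chromosome 6) read 9.68, 9.92, 9.74, 9.88 and 9.87 in wild types 1 to 5 and 9.32, 9.61, 9.46, 9.20 and 9.70 in mutants 1 to 5. Only mutant 5 reached the wild types, just above wild type 1, and 4 of 5 mutants were below every wild type. Means were 9.82 ± 0.10 (SD, n = 5) and 9.46 ± 0.20 (SD, n = 5). The change of -0.36 ± 0.10 (SE), a mutant level 0.779-fold that of wild type with a 95% interval of 0.672 to 0.902, did not pass (limma adjusted p = 0.170). The exact permutation test of this value gave p = 0.0159.

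The array carries 7 probe sets for Ccnd2, which read the same RNA of the same mice and so are not separate evidence. All 7 had a negative change. The 5 above the receptor level ran from -0.46 to -0.35. Probe set 1434745_at had -0.35 ± 0.11 (SE), 1455956_x_at had -0.40 ± 0.12 (SE) and 1430127_a_at had -0.35 ± 0.12 (SE), with limma adjusted p-values of 0.265, 0.244 and 0.342. In 1448229_s_at, at a mean of 6.94, wild type 2 read 7.98 and the change was -0.46 ± 0.23 (SE, limma adjusted p = 0.583). Mutants 1 and 4 were the lowest mice on each of the 4 brightest probe sets. The pair below the receptor level (1416124_at and 1416123_at) had changes of -0.07 and -0.19. Over the 21 alternative settings the main probe set stayed between -0.45 and -0.30, with limma adjusted p-values from 0.0851 to 0.342.

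**Figure D3:**
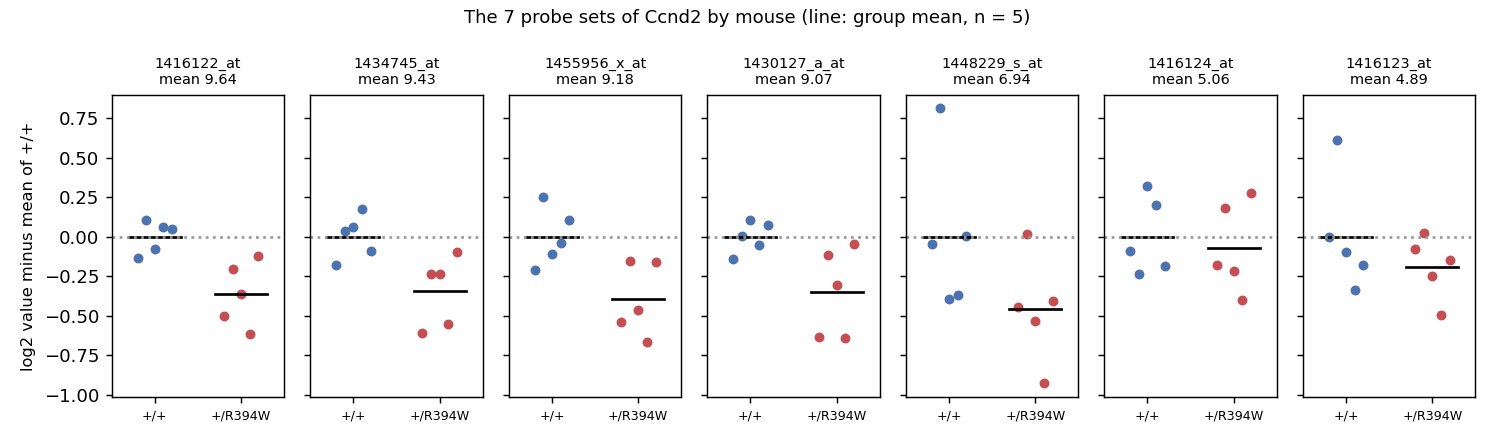
Log2 values of the 7 probe sets of Ccnd2 by mouse, each minus its own wild-type mean (vertical axis), with lines at the group means of 5 mice. Group means of mutants lie 0.35 to 0.46 below those of wild types on the 5 probe sets above the receptor level, and 0.07 and 0.19 below on the 2 dim ones.

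Ccnd1 encodes cyclin D1, the D cyclin most studied as a mitogen sensor. Its main probe set (1417420_at, chromosome 7) read 11.85, 11.80, 12.02, 11.91 and 12.08 in wild types 1 to 5 and 11.69, 11.91, 12.14, 12.01 and 12.09 in mutants 1 to 5. Mutant 1 was lowest and mutant 3 highest, so the mutants held both ends of the range. The change was 0.04 ± 0.09 (SE, limma adjusted p = 0.937), with a 95% interval of 0.892-fold to 1.18-fold, and the 2 other probe sets had changes of 0.04 ± 0.10 (SE) and 0.105 ± 0.13 (SE).

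Ccnd3 encodes cyclin D3, which is common in resting and differentiated cells. The main probe set (1415907_at, chromosome 17) read 10.58, 10.58, 10.27, 10.74 and 10.695 in wild types 1 to 5 and 10.43, 10.42, 10.54, 10.53 and 10.85 in mutants 1 to 5. Mutant 5 lay above the other mutants and wild type 3 below the other wild types. Its change of -0.02 ± 0.11 (SE, limma adjusted p = 0.976) had an interval of 0.841-fold to 1.16-fold. Probe set 1444323_at had a change of -0.08 ± 0.07 (SE), and 1438805_at, below the receptor level, had 0.17 ± 0.21 (SE) with mutant 1 alone at 6.39. The intervals of Ccnd1 and Ccnd3 exclude a fall as large as the mean difference of Ccnd2, but whether the 3 cyclins differ in response was not tested.

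Cdk4, the kinase that D cyclins activate, had changes of 0.02 to 0.05 on its 3 probe sets. The main one (1422441_x_at, chromosome 10) read 10.31, 10.09, 10.48, 10.42 and 10.38 in wild types 1 to 5 and 10.04, 10.43, 10.50, 10.40 and 10.56 in mutants 1 to 5. Wild type 2 and mutant 1 were the low mice in both genotypes. The change was 0.05 ± 0.11 (SE, limma adjusted p = 0.925), with a 95% interval of 0.881-fold to 1.22-fold. The suffix of this probe set marks probes that can match other transcripts too. The probe set without such a suffix (1422440_at) had 0.02 ± 0.12 (SE).

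Several members varied together across mice of both genotypes. Mutant 5 had the highest value of all 10 mice in 6 of the 10 members, namely Cdkn1c, Cdkn2a, Cdkn2b, Cdkn2c, Ccnd3 and Cdk4. Wild type 3 had the lowest in 4, namely Cdkn1a, Cdkn1c, Cdkn2c and Ccnd3. For Cdkn1c, Cdkn2a, Cdkn2b and Cdkn2c the mutant mean was also the higher, and Cdkn2a was below the receptor level. How often a given mouse is highest or lowest over all genes was not counted. By the main probe sets, wild type 2 and mutant 1 shared a profile across genotypes: they were lowest for Ccnd1 and Cdk4 and highest for Cdkn1b. The sample titles of this pair carry consecutive numbers, whose meaning the labels do not give, so the part of a shared litter or handling day was not tested. The same pair was lowest on all 3 Cdk4 probe sets and on 1448698_at of Ccnd1. It was not lowest on 1417419_at of Ccnd1, where wild type 4 read 10.53, wild type 2 10.96 and mutant 1 10.82. For Cdkn1b, the dimmer 1419497_at had wild type 1 (6.31) between wild type 2 (6.43) and mutant 1 (6.14).

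**Figure D4:**
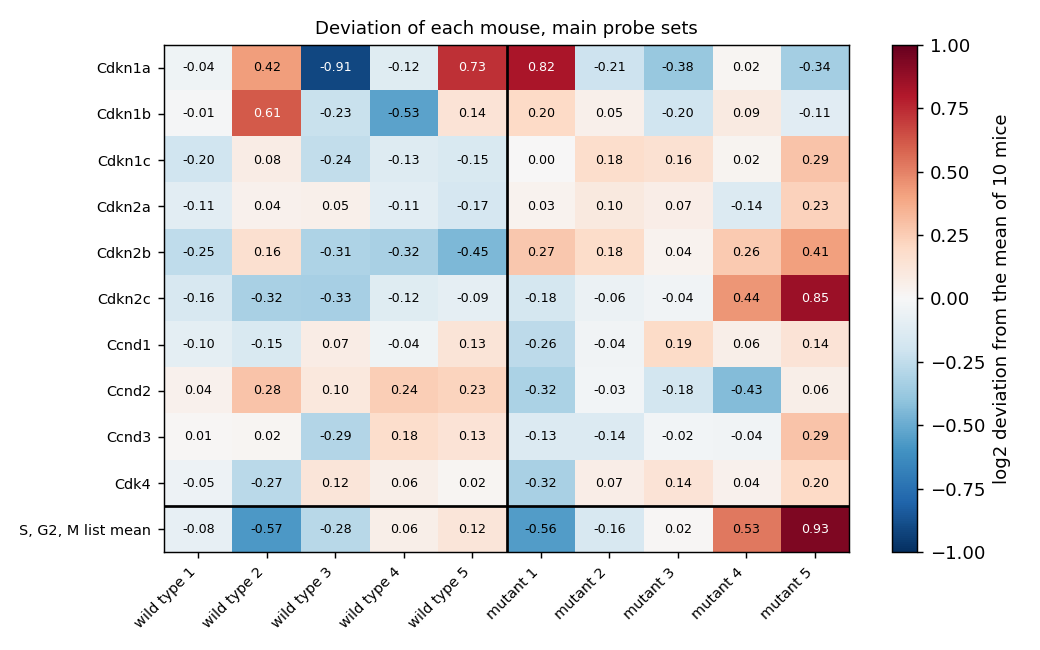
Deviation of each mouse (columns) from the mean of the 10 mice, in log2 units, for the main probe set of each member and for the mean of 23 S, G2 and M phase genes (bottom row); red is above and blue below the mean. Cdkn2b is below the mean in 4 of 5 wild types and above it in all 5 mutants, and the bottom row runs from -0.57 in wild type 2 to 0.93 in mutant 5.

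Wild type 2, mutant 1 and mutant 5 also stood out for genes of dividing cells, as did mutant 4. A list of S, G2 and M phase genes (23 of 24 measured, such as Mki67 and Top2a) had its lowest means in wild type 2 (8.03) and mutant 1 (8.05) and its highest in mutant 4 (9.14) and mutant 5 (9.54). The other mice lay from 8.33 to 8.73. Mutants 4 and 5 were thus highest for both this list and Cdkn2c. They were at opposite ends for proximal tubule genes, whose list mean was 10.84 in mutant 4, the highest mouse, and 7.22 in mutant 5, which with wild type 5 (7.05) was lowest. With the S, G2 and M mean as a covariate, an alternative added after the data were seen, the genotype change of Cdkn2c was 0.21 ± 0.08 (SE, limma adjusted p = 0.488) in place of 0.41. Those of Cdkn2b, Cdkn1c and Ccnd2 were 0.48, 0.25 and -0.38. The covariate was itself higher on average in mutants, so it can take up part of a genotype change. The part of dividing cells or of tubule cells in the values of Cdkn2c was not tested.

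**Figure D5:**
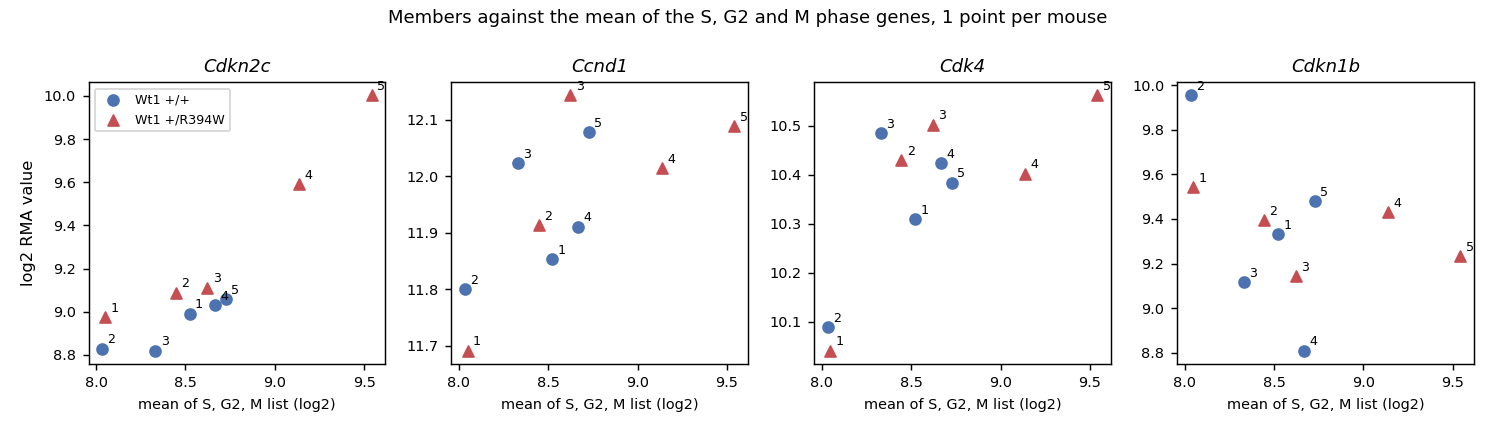
Main probe sets of Cdkn2c, Ccnd1, Cdk4 and Cdkn1b (vertical axes, log2 RMA value) against the mean of 23 S, G2 and M phase genes (horizontal axes, log2), with 1 point per mouse, circles for wild types and triangles for mutants. Mutants 4 and 5 are at the upper right for Cdkn2c, and wild type 2 and mutant 1 are at the lower left for Ccnd1 and Cdk4 and at the upper left for Cdkn1b.

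Among the other genes of the G1/S machinery, which hold drivers of S phase entry and brakes such as Rb1, only Cdk6 passed. Over all 18193 genes, 1.26% did so by their main probe sets. Of 25 measured genes of the G1/S machinery, 1 rose and none fell, 6 had an unadjusted p under 0.05, where 11% of all genes did, and the median change was 0.08, beside 0.0043 over all genes. Without mutant 5 that 6 was 1 and the median was 0.05. Cdk6, the sister kinase of Cdk4, read 8.94, 9.08, 9.04, 9.30 and 9.14 in wild types 1 to 5 and 9.42, 9.45, 9.46, 9.58 and 9.41 in mutants 1 to 5 (1455287_at, chromosome 5). Every mutant was above every wild type, which held for 1.7% of genes. The rise of 0.36 ± 0.07 (SE) had a limma adjusted p of 0.0453. That call depended on the settings: it held in 5 of 21 alternative settings, with adjusted p-values up to 0.327, and when 1 mouse was left out it held only without wild type 4 (up to 0.113 otherwise). With arrays centred on their medians the change was 0.37 (limma adjusted p = 0.0672) and with quantile normalization it was 0.35 (0.0715). With the mean of its 3 probe sets it was 0.21 (0.254). A further probe set of Cdk6 (1435338_at) had 0.30 ± 0.08 (SE, limma adjusted p = 0.174) with no overlap, and the remaining one, below the receptor level, had -0.03.

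By limma 0 of the 23 S, G2 and M phase genes passed, and 0 had an unadjusted p under 0.05. All 23 changes were positive with a median of 0.28, where 51.7% of all genes had a positive change. Mutant 5 was the highest mouse for each of these genes, which varied together over the mice, so their signs are not separate evidence. Without mutant 4 the median was 0.15 with 22 positive, and without mutant 5 it was 0.07 with 21 positive. Those with the smallest p were Rrm2, a subunit of ribonucleotide reductase (0.74 ± 0.36 SE), and Cdk1, the mitotic kinase (0.49 ± 0.25 SE). Mutants 4 and 5 were the highest mice for the list mean, and mutants 1 to 3 lay within the range of the wild types. Among 20 measured genes of the p53 pathway, only Perp passed, a membrane protein of desmosomes that p53 can induce, with a rise of 2.19 ± 0.18 (SE, limma adjusted p = 0.000119). Of the list, 2 genes had an unadjusted limma p under 0.05, where 11% of all genes did. Its changes were positive in 10 and negative in 10, with a median of -0.0087. Perp was 7.43 to 8.42 in wild types and 9.80 to 10.39 in mutants. The genotypes overlapped in Cdkn1a, also a p53 target, and the part of p53 in these values was not tested.

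Of 20 genes that control the level of D cyclins and CDK inhibitors (ubiquitin ligase subunits, FOXO and MYC factors, Polycomb proteins), 0 passed by limma. In this list 1 gene had an unadjusted p under 0.05 and the median change was 0.01. Over all genes 1.26% passed by limma, 11% had an unadjusted p under 0.05 and the median change was 0.0043. Cul4a, a ubiquitin ligase scaffold, had 0.235 ± 0.073 (SE, limma adjusted p = 0.263) and Foxo3, a factor that can induce Cdkn1b, had -0.185 ± 0.089 (SE, limma adjusted p = 0.564). Among 16 measured genes of the imprinted region of chromosome 7 around Cdkn1c, 0 passed, 2 had an unadjusted p under 0.05, 4 changes were positive and 12 negative, with a median of -0.04. Neither these counts nor the median stand as a result about the region: 2 of 16 is near the 11% of all genes, and with 1 mouse left out 2 to 6 changes were positive. The smallest p-values belonged to Dhcr7, a cholesterol synthesis enzyme (-0.39 ± 0.11 SE, limma adjusted p = 0.208), and Igf2, a paternally expressed growth factor (0.46 ± 0.14 SE, limma adjusted p = 0.236).

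Most members are made by many cell types, so markers of the cells that a preparation can hold are given beside them. No marker passed among 11 podocyte, 12 endothelial, 6 parietal, 15 proximal tubule and 11 distal nephron genes. In that order 3, 3, 2, 1 and 0 had an unadjusted limma p under 0.05, where 11% of all genes did. For the remaining lists these counts were 4 of 11 mesangial and smooth muscle, 2 of 13 leukocyte and 3 of 4 erythroid genes. Changes were negative in 9 podocyte, 10 endothelial and 3 parietal genes. They were positive in 13 proximal tubule and 8 distal nephron genes, where 51.7% of all genes had a positive change. Many tubule genes varied together over the mice, so their signs are not separate evidence. Myl9 rose among 11 mesangial and smooth muscle genes (0.58 ± 0.11 SE, limma adjusted p = 0.0330), where 1.26% of all genes passed. The mean of that list was 10.55 to 10.82 in wild types and 10.77 to 11.26 in mutants, highest in mutant 5. Csf1r fell by limma (-0.99 ± 0.17 SE, adjusted p = 0.0220) among 13 leukocyte genes (means 5.97 to 6.70 and 5.87 to 6.42, with 5 of 13 above the receptor level). Slc25a37 fell (-0.59 ± 0.12 SE, limma adjusted p = 0.0436) among 4 erythroid genes (means 7.13 to 7.82 and 6.66 to 7.11). Of the leukocyte changes 8 were positive and 5 negative, with a median of 0.018. The mesangial and smooth muscle list had 8 positive and 3 negative changes, and the erythroid one 1 and 3. Endothelial means were 11.84 to 12.04 (wild types) and 11.71 to 12.02 (mutants), and parietal means 7.02 to 7.21 and 7.04 to 7.33. Tubule genes varied most: the proximal list mean was 7.05 to 9.77 (wild types) and 7.22 to 10.84 (mutants), and the distal one 6.39 to 7.997 and 6.41 to 8.01. With a tubule score as covariate the changes were 0.47 for Cdkn2b, 0.46 for Cdkn2c, 0.28 for Cdkn1c and -0.33 for Ccnd2, none of them called. The part of the other cell types in these differences was not tested.

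The genes whose mouse-by-mouse deviations were closest to a member over the 10 arrays were found by the root mean square difference, in log2 units. Because these deviations include the genotype difference, a change like that of the member is favoured by the choice and is not separate evidence. For Cdkn1c, which deviated by 0.17 itself, they were Ackr3, a scavenger receptor of Cxcl12 (0.06), Pigk (0.06) and Mgarp (0.07). For Ccnd2, with a deviation of 0.23, they were Cmtm7, Elmo2 and Mmp23 (each 0.10). Of these only Elmo2, an adaptor of Rac activation, passed, with a change of -0.41 ± 0.08 (SE, limma adjusted p = 0.0340). For Cdkn1a, with a deviation of 0.50, they were Tal2 (0.11), Cdc42ep4 (0.20) and Tsc22d3, a glucocorticoid-induced gene (0.20), and none of these passed.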

How the data were processed

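Glomeruli of 10 mice were isolated after bead perfusion through the heart, and each mouse's RNA was hybridised to 1 array, per the labels and the series' design text. The authors deposited log2 values made with RMA, per the submitters' processing notes. Version and settings: not given in the sources used here. RMA makes array distributions alike and compresses changes of weak signals. Scanner files were not used here.

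Of 45101 probe sets, 64 controls were left out. The annotation named 1 gene for 34945, several for 932 and none for 9160 of the rest. The genotype comparison used R version 4.3.3 and limma version 3.58.1 with no covariate, adjusting over 45037 probe sets and calling an adjusted p under 0.05. The script was tested on simulated data first. Exact permutation tests covered all 252 arrangements of 5 and 5 mice (scipy version 1.17.1), and figures used matplotlib (version 3.10.9).

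Named are all members, called genes of each list (otherwise the 2 with the smallest p), Wt1 and the 3 nearest patterns of Cdkn1c, Ccnd2 and Cdkn1a. Members and lists were chosen with earlier results of these data known. Called markers, Mki67 and Top2a were named in addition. Alternatives were centring, quantile normalization, a filter at the receptor level, another variance model, array weights, a tubule covariate, probe set type, gene means, mice with close title numbers, each mouse left out and, chosen after seeing the data, a cell cycle covariate and runs of consecutive title numbers as a block. How arrays fell into batches is not given in the sources used here.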

Additional observations from a re-analysis of the deposited data

Results flagged for a closer look

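Of 74 sets of 5 mice examined (each member probe set and each list mean, by genotype), 6 held a mouse far from the other 4 for the spread of its group, where chance gives about 1 in 20. Mutant 1 was involved in 3. It was high for the dimmer Cdkn1a probe set 1421679_a_at at 8.05, with the other mutants at 7.45 to 7.61. It was low for Ccnd1 on 1448698_at at 11.61, with the others at 11.95 to 12.02. It was high for Ccnd3 on 1438805_at at 6.39, with the others at 5.13 to 5.28, and that probe set is below the receptor level. Mutant 5 was high for Ccnd3 on 1415907_at at 10.85, with the others at 10.42 to 10.54, and low for the mean of the distal nephron genes at 6.41, with the others at 7.67 to 8.01. Among the mutants, the mean of the genes around Cdkn1c on chromosome 7 was highest in mutant 4 at 8.04, with the others at 7.92 to 7.95. Wild type 1 lay above it at 8.06.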

How the results depend on the processing

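The count of members called was 0 under all settings except without wild type 2, when Cdkn2b passed, so with 1 mouse left out it ran from 0 to 1. Cdkn2b, Cdkn2c, Cdkn1c, Cdkn2a and Ccnd2 kept the direction of their change under every setting that could be run for them, and for Cdkn2a the receptor level filter and the limit on probe set type left no value. The change of Cdkn2a, 0.11 with all mice, was 0.0179 with the 7 mice of close title numbers, 0.0217 with their block and 0.0714 without mutant 5. The other 5 members turned sign under some settings, with no call on either side. With 1 mouse left out, the change ran from -0.26 to 0.15 for Cdkn1a, from -0.12 to 0.16 for Cdkn1b, from -0.0062 to 0.11 for Ccnd1, from -0.0942 to 0.0233 for Ccnd3 and from -0.0129 to 0.14 for Cdk4. Cdkn1b also changed to -0.0076 with quantile normalization, to -0.0388 with array weights and to -0.0387 with the mean of its probe sets. Ccnd3 changed to 0.0137 with the tubule covariate and to 0.022 with the mean of its probe sets. Cdkn1a changed to 0.27 with the 7 mice of close title numbers, and with the cell cycle covariate, chosen after seeing the data, Cdkn1a changed to 0.0794, Ccnd1 to -0.0301 and Cdk4 to -0.0355. The total of 384 called probe sets was 110 with those 7 mice and 244 with the cell cycle covariate, and with 1 mouse left out it ran from 216 to 301, lowest without wild type 4 (216) and wild type 1 (242). The labels do not say which mice share a litter and give no pair or shared replicate number. The same 7 mice fall into a pair and a set of 5 with consecutive title numbers, each with both genotypes, and a fit with these runs as a block was added after seeing the data. It called 126 probe sets and no member, with changes of -0.45 for Ccnd2 (limma adjusted p = 0.280), 0.37 for Cdkn2b (0.330), 0.28 for Cdkn2c and 0.19 for Cdkn1c, and with reversed values of 0.349 for Cdkn1a and -0.0208 for Cdk4. The causes were not tested.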

Other observations

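Cdkn2d, which encodes p19 and is the remaining INK4 inhibitor, was part of the G1/S list and was named here after its values were seen. Its probe set (1416253_at) read 9.43 to 9.81 (wild types) and 9.35 to 10.12 (mutants), with mutant 5 highest. The change of 0.05 ± 0.13 (SE) was not called (limma adjusted p = 0.941). Cdkn3, a phosphatase of CDKs that is made in dividing cells, lay below the receptor level on average (1430574_at, mean 6.11), and mutants 4 and 5 were the highest mice at 6.59 and 6.93, while the others lay from 5.64 to 6.11.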
